A study of Mus musculus with 18 samples.

Results

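The exorbital lacrimal glands (LGs) of NOR and BALB/c mice were compared at 3 weeks of age, an age that the design places before the onset of gland disease in NOR mice. The comparison used 6 of the 18 RNA-seq libraries of the series, chosen by the strain and age on their labels. They comprised 3 libraries of untreated male NOR/LtJ mice and 3 of untreated male BALB/cJ mice, each made from the RNA of 1 mouse. The other 12 libraries came from mice of the same strains at 8 and 16 weeks and were pools of 2 to 3 mice. The sample titles of the diseased strain read NOD, while its genotype label reads NOR/LtJ, and the label was followed here. The values are counts of reads per gene, which totaled 20347504, 13261982 and 18217485 in BALB/c 1, 2 and 3 and 17176276, 11420477 and 6378613 in NOR 1, 2 and 3. Levels are in CPM, normalized counts scaled to the same total in each library, and 3 counts corresponded to 0.164 to 0.527 CPM in these libraries.

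The LG is an exocrine gland whose acinar cells make most of the proteins and water of the tear film. Parasympathetic nerves drive its secretion through muscarinic and vasoactive intestinal peptide receptors, and ducts modify and carry the fluid to the eye. NOR mice are a diabetes-resistant relative of the NOD strain and carry its H2g7 major histocompatibility complex (MHC) haplotype. Their males develop inflammation of the LG as adults, so they serve as a model of Sjögren's disease, while BALB/c mice serve as healthy controls. The strains differ at many loci besides those linked to disease. A strain difference in a bulk library therefore includes effects of genetic background, and fewer cells of a type cannot be told apart from less RNA per cell.

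The tissue, sex and strain of the 6 libraries were checked with marker genes, and no library went against its labels. The strain marker separates BALB/c from the H2g7 strains but not NOR from NOD. The water channel gene Aqp5, an acinar marker, stood at 191, 196 and 204 CPM in BALB/c and at 190, 184 and 193 CPM in NOR. Lpo, which encodes the secreted lactoperoxidase, stood at 8797, 8384 and 8927 CPM in BALB/c and at 10775, 9431 and 10150 CPM in NOR. The Y-linked gene Ddx3y lay between 28.1 and 40.2 CPM in the 6 libraries, and Xist, the RNA that silences an X chromosome in females, did not exceed 0.352 CPM. H2-Ea-ps, the locus of the MHC class II E alpha chain, which the H2g7 haplotype does not express, stood at 6.57, 7.83 and 5.45 CPM in BALB/c. In NOR it had 1 count in 1 library and none in the other two.

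The libraries also held unequal levels of transcripts typical of salivary glands, and this did not follow strain alone. Their source, such as carry-over at dissection, was not tested. Bpifa2, which encodes an abundant parotid secretory protein, stood at 0.383, 9870 and 1.20 CPM in BALB/c 1, 2 and 3 and at 49.9, 40292 and 42100 CPM in NOR 1, 2 and 3. The 7 salivary genes Bpifa2, Amy1, Prpmp5, Smr3a, Dcpp1, Dcpp2 and Dcpp3 together took 1.33% of the counts of BALB/c 2, 6.36% of NOR 2 and 6.12% of NOR 3. Their summed level was 1.53 and 1.96 CPM in BALB/c 1 and 3 and 70.8 CPM in NOR 1. BALB/c 1, BALB/c 3 and NOR 1 were thus low in these salivary transcripts, and BALB/c 2, NOR 2 and NOR 3 were high. Of the salivary markers tested, Prpmp5 and Dcpp2 passed the thresholds for a strain difference, and both lost that call when any 1 of 4 libraries was left out. The summed level of skeletal muscle markers was 5.09, 196 and 6.46 CPM in BALB/c against 16.6, 68.3 and 21.1 CPM in NOR. That of adipose markers was 26.6, 83 and 11.6 CPM in BALB/c against 61.9, 114 and 85.1 CPM in NOR.

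**Figure D1:**
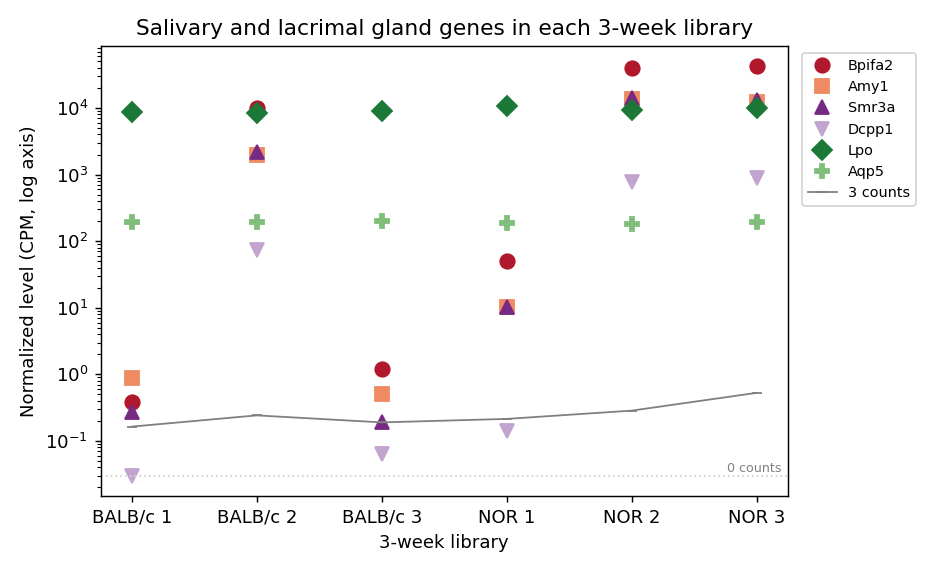
Normalized level (CPM, log axis) of 4 salivary gland genes (Bpifa2, Amy1, Smr3a, Dcpp1) and 2 lacrimal acinar genes (Lpo, Aqp5) in each of the 6 libraries, with the level of 3 counts as a grey line. The salivary genes are high in BALB/c 2, NOR 2 and NOR 3, while Aqp5 stays between 184 and 204 CPM.

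Of 13376 genes tested, 703 (5.26%) were differentially expressed genes (DEGs) in NOR LGs at 3 weeks. They had a Benjamini-Hochberg adjusted P-value of at most 0.05 in edgeR's quasi-likelihood test and a log2 fold change of at least 1 in either direction. The upregulated genes numbered 474 (3.54% of the genes tested) and the downregulated genes 229 (1.71%). The median log2 fold change over all genes was 0.0052. In 656 of the 703 DEGs (93.3%) the libraries of the strains did not overlap, which the choice of DEGs on the same libraries favors. Among all genes, 15.8% had every NOR library above every BALB/c library and 15.5% had every NOR library below. The strain difference was also fitted within the salivary-low and the salivary-high libraries separately. In each of these fits 1 strain had a single 3-week library, which was assumed to vary like the libraries of the other groups. Of the 703 DEGs, 255 passed the thresholds in both, a count that is not independent of the 703, since the same libraries chose them. The DEGs of these fits made up 3.31% of the genes tested in the salivary-low and 2.93% in the salivary-high libraries. With the level of the 7 salivary genes as a covariate, 627 genes (4.69%) were called, and 564 of them were among the 703.

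Several of the genes with the smallest P-values were close to absent in one strain (the plot of the 20 leading genes). BC018473, on chr11:116752167-116757883 of mm10, had 1, 4 and 1 counts in the BALB/c libraries and stood at 1435, 1461 and 1058 CPM in NOR (log2 fold change 13.22 ± 0.37, adjusted P = 1.23e-14). The fold rests on those 6 counts and was 14.27 on the log2 scale without BALB/c 2. Mucl1, which encodes a small mucin-like secreted protein, had 1, 3 and 1 counts in BALB/c and stood at 334, 306 and 375 CPM in NOR. The NOR to BALB/c ratio of its pooled counts was 3086 (95% exact interval 1322 to 9507, counting error only; adjusted P = 2.63e-14). Ceacam2, a cell adhesion molecule of the carcinoembryonic antigen family, had 5 counts over the 3 BALB/c libraries and stood at 67.7, 63.3 and 61.0 CPM in NOR, a ratio of 603 (258 to 1860).

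Hapln4, which encodes a link protein of hyaluronan-rich matrix, had no count in BALB/c and stood at 16.9, 16.4 and 14.9 CPM in NOR. Against a floor of 3 counts per library, it was at least 80.9-fold higher. Asgr1, a subunit of the asialoglycoprotein receptor, stood at 0.383, 0.0807 and 0.443 CPM in BALB/c and at 141, 106 and 92.6 CPM in NOR (log2 fold change 8.43 ± 0.29 SE). On chromosome 17, the neighbors Rsph1 and Slc37a1 were both higher in NOR. Rsph1 encodes a radial spoke protein of motile cilia and had 2 counts in each BALB/c library against 6.0, 6.56 and 6.85 CPM in NOR, a ratio of 49.2 (22.2 to 136). Slc37a1, a glucose-6-phosphate transporter of the endoplasmic reticulum, stood at 7.06, 6.86 and 10.5 CPM in BALB/c and at 159, 150 and 153 CPM in NOR (log2 fold change 4.24 ± 0.15). The other 3 leading upregulated genes were expressed in both strains. Actn1, an actin crosslinker, stood at 83.9, 77.9 and 86.5 CPM in BALB/c and at 322, 317 and 331 CPM in NOR. Cd59a, which blocks the membrane attack complex of complement, had a log2 fold change of 3.14 ± 0.17. Retsat, which saturates retinol, had a log2 fold change of 2.24 ± 0.12.

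The leading downregulated genes were as sharply separated. Asrgl1, an asparaginase-like enzyme, stood at 56.2, 52.2 and 56.8 CPM in BALB/c and at 8.50, 9.22 and 9.31 CPM in NOR (log2 fold change -2.62 ± 0.09, adjusted P = 8.42e-14). Htr5b, a serotonin receptor gene, stood at 17, 22 and 18.3 CPM in BALB/c and had 3 counts over the 3 NOR libraries. Its BALB/c level was 189-fold that of NOR (64.5 to 918). Slc16a12, of the monocarboxylate transporter family, stood at 31.1, 37.3 and 29.5 CPM in BALB/c and at 1.43, 0.951 and 1.58 CPM in NOR. Snap91, a clathrin assembly protein known from synapses, had a log2 fold change of -3.39 ± 0.19, and Suclg2, the GTP-specific beta subunit of succinyl-CoA ligase in mitochondria, one of -1.93 ± 0.12. The predicted genes 5530400C23Rik and Gm5885 lie near each other on chromosome 6. The first stood at 1257, 1360 and 1174 CPM in BALB/c and at 12.7, 9.6 and 10.7 CPM in NOR, and the second at 536, 579 and 505 against 9.86, 12.1 and 13.4 CPM. Their levels are uncertain, since reads that fit both of such copies were not counted. The remaining 3 of the leading downregulated genes were BC048546 (log2 fold change -3.90), Tmem181c-ps (-5.88) and 4930597G03Rik (-3.15). All 20 leading genes kept their calls when any 1 of the 6 libraries was left out and with either covariate for salivary genes.

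**Figure D2:**
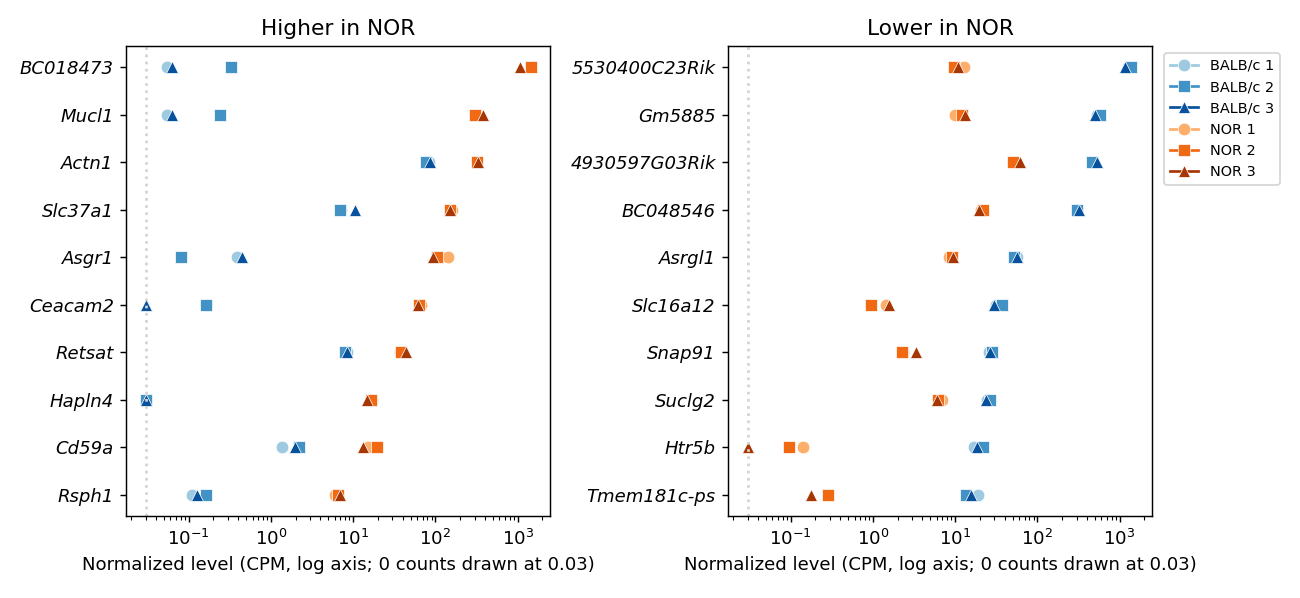
Normalized level (CPM, log axis, 0 counts drawn at 0.03) of the 10 upregulated and 10 downregulated genes with the smallest P-values, one point per 3-week library. In each gene the 3 NOR libraries lie on one side of the 3 BALB/c libraries, as for Slc37a1 (BALB/c between 6.86 and 10.5 CPM, NOR between 150 and 159 CPM).

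The gene list with the largest share of DEGs was that of mitosis. Entry into and exit from mitosis are driven by cyclin-dependent kinase 1 (Cdk1) with cyclins A2 and B, by Aurora and Polo-like kinases, and by the ubiquitin conjugating enzyme Ube2c, which helps to destroy the cyclins. Many of these genes carry a short promoter element, the cell cycle genes homology region (CHR, TTTGAA), through which they are repressed in resting cells and activated late in the cell cycle. TTTGAA or its reverse complement TTCAAA was present for 20.2% of the 27025 genes with a RefSeq promoter in GRCm38.p6 (250 bases before to 50 after a start), and for 5.72% within the 100 bases centered on the start. Counted per promoter, the shares were 17.9% and 4.94% of 32851. A promoter was found for 24 of the 30 mitosis genes listed. Of these, 18 held the motif in the whole window and 16 in the central 100 bases. Among the 20 of them that were DEGs, it was held by 14 and 13. Of 20 DNA replication genes with a promoter, 3 held it in the whole window and 1 in the central 100 bases.

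The promoters of 4 genes are shown because they carry this element and their transcripts differed between strains. The 120 bases before the RefSeq start are printed 5′ to 3′ on the strand of the gene, with TTTGAA or TTCAAA in capitals. Prc1 lies at chr7:80294356-80294475 on the plus strand and Ube2c at chr2:164769809-164769928 on the plus strand. Mki67 lies at chr7:135716380-135716499 and Cdk1 at chr10:69352913-69353032, both on the minus strand, and each holds 2 matches.
Prc1: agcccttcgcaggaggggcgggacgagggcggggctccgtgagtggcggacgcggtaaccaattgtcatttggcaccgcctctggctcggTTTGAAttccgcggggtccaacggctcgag
Ube2c: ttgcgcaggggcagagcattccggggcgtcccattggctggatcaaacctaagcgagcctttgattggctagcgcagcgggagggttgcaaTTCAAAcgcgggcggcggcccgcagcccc
Mki67: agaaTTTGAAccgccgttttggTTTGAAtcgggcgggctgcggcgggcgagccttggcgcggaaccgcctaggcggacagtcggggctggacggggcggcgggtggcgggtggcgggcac
Cdk1: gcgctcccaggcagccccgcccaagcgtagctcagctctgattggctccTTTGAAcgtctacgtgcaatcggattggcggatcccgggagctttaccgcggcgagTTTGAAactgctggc

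At 3 weeks, 26 of the 30 mitosis genes were upregulated in NOR LGs and none was downregulated, against 3.54% and 1.71% of all genes tested. Their median log2 fold change was 2.59. Many of these folds rest on few counts in BALB/c. The median level of the 30 genes there was 0.411, 0.646 and 0.538 CPM, where 3 counts corresponded to 0.164, 0.242 and 0.190 CPM. Summed over the list, the level was 35.3, 44.2 and 43.0 CPM in BALB/c and 68.7, 155 and 280 CPM in NOR. NOR 1 exceeded every BALB/c library in 26 of the 30 genes, and NOR 2 and NOR 3 did so in all 30. Every NOR library thus lay above every BALB/c library in 26 genes, as in 15.8% of all genes tested. The NOR libraries thus lay above the BALB/c libraries but differed widely among themselves. Prc1, which bundles the microtubules of the spindle midzone, stood at 0.766, 1.29 and 0.570 CPM in BALB/c and at 4.36, 8.27 and 14.1 CPM in NOR (log2 fold change 3.30 ± 0.44, adjusted P = 2.36e-05). Ube2c stood at 0.328, 0.646 and 0.127 CPM in BALB/c and at 1.64, 3.90 and 10.02 CPM in NOR. The proliferation marker Mki67 stood at 8.76, 11.1 and 12.5 CPM in BALB/c and at 17.1, 35.4 and 51.5 CPM in NOR (log2 fold change 1.63 ± 0.29, adjusted P = 0.000515). Cdk1 stood at 2.41, 2.66 and 3.10 CPM in BALB/c and at 4.43, 9.6 and 15.3 CPM in NOR (1.77 ± 0.34, adjusted P = 0.00125). These 4 genes did not overlap between strains.

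The cyclin genes Ccna2, Ccnb1 and Ccnb2, the kinase genes Plk1 and Aurkb and the spindle factor gene Tpx2 were likewise upregulated. Top2a, Bub1b, Aurka and Kif2c were not called. Top2a, which untangles DNA, stood at 11.5, 12.6 and 12.8 CPM in BALB/c and at 10.6, 14.1 and 26.5 CPM in NOR. Of 26 DNA replication genes, Mcm6 and Tk1 were upregulated, against 3.54% of all genes, each losing its call without NOR 3 (adjusted P = 0.123 and 0.0892) and without at least 1 other library. The median of that list was 0.47, and its summed level was 90.6, 96.2 and 95.3 CPM in BALB/c and 102, 118 and 130 CPM in NOR. Of 11 cell cycle inhibitors, only Cdkn2c was called, and its log2 fold change was below 1 without NOR 2 (0.98) or NOR 3 (0.96).

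Among the NOR libraries, NOR 1 was lowest in both the mitosis genes and the salivary genes. NOR 2 and NOR 3 had similar salivary sums (69090 and 68560 CPM), while their mitosis sums were 155 and 280 CPM. In BALB/c, the salivary-high library BALB/c 2 had the highest summed mitosis level (44.2 CPM), and the salivary-low BALB/c 3 and BALB/c 1 had 43.0 and 35.3 CPM. The part of salivary tissue in the difference was not settled by these values. With the salivary covariate, 19 mitosis genes were upregulated (2.85% of all genes were) and their median was 1.82. Within the salivary-high libraries, where BALB/c 2 alone met 2 NOR libraries, 17 were upregulated, with a median of 2.67, against 1.9% of all genes. Within the salivary-low libraries, where NOR 1 alone met 2 BALB/c libraries, 4 were upregulated (Prc1, Tpx2, Ccna2 and Ube2c), with a median of 1.24, against 1.92% of all genes. Both fits took the spread of the single library from the other groups, so they describe these libraries more than the strains. Without NOR 3, the library with the fewest counts, 21 were upregulated, with a median of 2.10. Of the 26 calls, those of Bub1, Kif23, Nuf2, Nusap1 and Ttk were lost when NOR 3 or, for all but Nusap1, any 1 of at least 2 other libraries was left out.

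**Figure D3:**
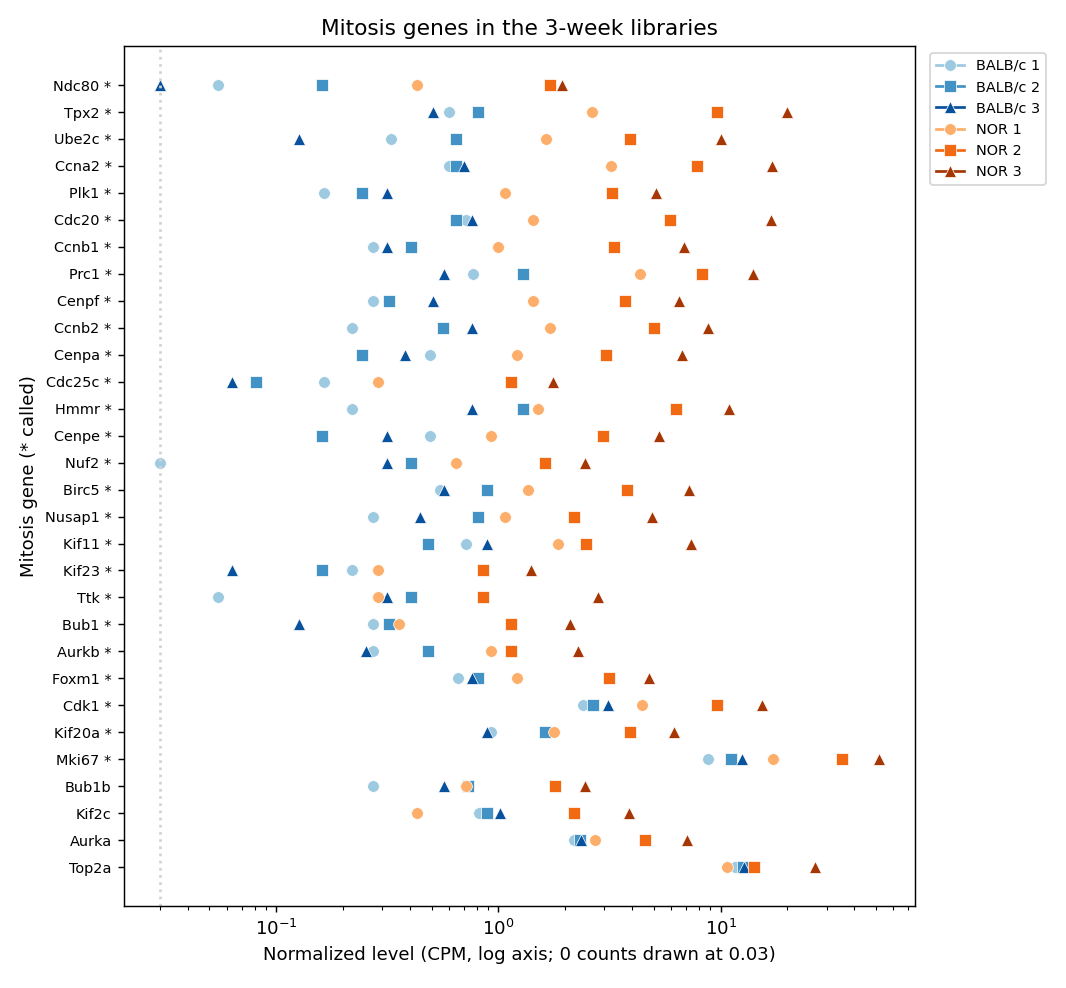
Normalized level (CPM, log axis, 0 counts drawn at 0.03) of the 30 mitosis genes in each 3-week library, ordered by log2 fold change, with DEGs marked by an asterisk. NOR 2 and NOR 3 lie above every BALB/c library in all 30 genes and NOR 1 in 26. Among all genes tested, 15.8% have every NOR library above every BALB/c library.

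The lipid genes were grouped by pathway. Of 27 genes of fatty acid synthesis and storage, 4 were upregulated and 1 was downregulated (3.54% and 1.71% of all genes were), with a median of 0.16, and all 5 calls held without any 1 library. Scd1, which makes monounsaturated fatty acids, stood at 23.9, 44.6 and 21.6 CPM in BALB/c and at 197, 305 and 193 CPM in NOR (log2 fold change 2.96 ± 0.23, adjusted P = 2.74e-08). Its relative Scd2 stood at 36.5, 60.4 and 55.1 CPM in BALB/c and at 183, 226 and 106 CPM in NOR. Thrsp, a promoter of lipogenesis, and the elongase gene Elovl6 rose by 2.67 and 1.22 on the log2 scale, while Plin2, which coats lipid droplets, fell by 1.33. Adipocyte transcripts moved in part with these genes. Of 7 adipose markers, 3 (Plin1, Cfd and Retn) were upregulated, of which Plin1 and Cfd lost their calls without BALB/c 1 (adjusted P = 0.0653 and 0.0546) and NOR 2 (0.0813 and 0.0634), and Plin1 also without BALB/c 3 (0.0588). The adipose sum was 26.6, 83 and 11.6 CPM in BALB/c and 61.9, 114 and 85.1 CPM in NOR. The part of adipose tissue in the difference was not tested.

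Of 24 genes of cholesterol synthesis and uptake, 2 were upregulated, Pmvk among them, against 3.54% of all genes, with a median of 0.04. Pmvk, the phosphomevalonate kinase of the mevalonate pathway, stood at 4.38, 5.49 and 3.29 CPM in BALB/c and at 74.0, 64.1 and 76.6 CPM in NOR. Fatty acid oxidation had 1 gene in each direction of 25 (3.54% and 1.71% of all genes), with a median of -0.21. Aldh3a2, a fatty aldehyde dehydrogenase, stood at 363, 362 and 392 CPM in BALB/c and at 1061, 944 and 1085 CPM in NOR. Ech1, an isomerase of unsaturated fatty acid breakdown, stood at 94.4, 91.1 and 88.9 CPM in BALB/c and at 22.3, 22.5 and 34.5 CPM in NOR. A further list held 33 tested lipid genes, a part of those that the study itself named from these samples. Others that it named, such as Ptger1 and Plin1, were not on the list. Of the 33, 5 were upregulated (Abcb1a, Hsd11b1, Plcb1 and Ptges among them) and Prkca was downregulated, where 3.54% and 1.71% of all genes were. That list is not independent evidence, and Hsd11b1 and Ptges lost their calls without at least 1 library.

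Retinoids, the derivatives of vitamin A, are stored, oxidized and bound by a further set of 25 genes, of which 5 were upregulated and 1 was downregulated, with a median of 0.02. The shares over all genes were 3.54% and 1.71%. Retsat stood at 8.48, 7.99 and 8.48 CPM in BALB/c and at 36.9, 38 and 43.8 CPM in NOR. Dhrs4, a retinal reductase, stood at 36.5, 35.6 and 40.6 CPM in BALB/c and at 119, 106 and 102 CPM in NOR. Aox3, an aldehyde oxidase, stood at 70.3, 74.2 and 61.0 CPM in BALB/c and at 17.7, 20.9 and 29.9 CPM in NOR (log2 fold change -1.62 ± 0.14). These 3 genes did not overlap between strains. Rbp4, the carrier of retinol in plasma, had 4 counts over the BALB/c libraries and stood at 0.571, 1.14 and 1.05 CPM in NOR. Crabp2, which carries retinoic acid in cells, was high only in NOR 2 and NOR 3 (3.33 and 2.99 CPM), not in NOR 1 (0.143 CPM), and its call was lost without NOR 2 (adjusted P = 0.0689). Rdh11 lost its call without BALB/c 3 (adjusted P = 0.0577) or NOR 3 (0.0562).

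Of 25 genes of complement and coagulation, 7 were upregulated and none was downregulated, against 3.54% and 1.71% of all genes, with a median of 0.53. Of these 7 calls, 5 held without any 1 library. Cfd, also an adipose marker, was one of the 7 and lost its call without BALB/c 1 (adjusted P = 0.0546) or NOR 2 (0.0634). Fgg, the fibrinogen gamma chain gene, stood at 74.2, 111 and 61.3 CPM in BALB/c and at 608, 488 and 534 CPM in NOR (log2 fold change 2.73 ± 0.23, adjusted P = 8.94e-08). The alpha chain gene Fga had no count in any of the 6 libraries, and the beta chain gene Fgb did not exceed 0.484 CPM. Mug1, a protease inhibitor of the alpha-macroglobulin family, stood at 2.57, 2.18 and 2.34 CPM in BALB/c and at 31.5, 21.7 and 22 CPM in NOR. The complement genes Cfb and C4b, both in the MHC region, rose by 2.06 and 1.76 on the log2 scale. C3, the central complement component, stood at 12.3, 16.1 and 6.20 CPM in BALB/c and at 27.9, 26.3 and 21.4 CPM in NOR, and its call was lost without BALB/c 3 (adjusted P = 0.0688) or NOR 1 (0.0514). Among 21 serpin genes, 3 were upregulated (3.54% of all genes), led by Serpinb11 at 3.39, 3.71 and 5.95 CPM in BALB/c and 68.4, 54.7 and 36.6 CPM in NOR. Serpine2 was one of them and lost its call with the salivary covariate and when BALB/c 2, BALB/c 3, NOR 2 or NOR 3 was left out (adjusted P = 0.0665 to 0.121).

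Genes of the secretory machinery were described by their roles. Of 8 receptor genes for secretory stimuli, none was a DEG, and 3 had an adjusted P-value below 0.05 with smaller changes, as did 15% of all genes with or without a larger change. Vipr1, the receptor for vasoactive intestinal peptide, stood at 21.8, 23.2 and 26.2 CPM in BALB/c and at 13, 14.6 and 10.2 CPM in NOR (log2 fold change -0.89 ± 0.13, adjusted P = 5.78e-05). Chrm3, the muscarinic receptor of acinar cells, stood at 19.9, 22.2 and 26.2 CPM in BALB/c and at 16.4, 17.2 and 18.1 CPM in NOR (-0.41 ± 0.12, adjusted P = 0.0326). P2rx7, a receptor for extracellular ATP, had a log2 fold change of -0.34 ± 0.10 (adjusted P = 0.0348). In 4 of the 8 receptor genes, these 3 included, every NOR library lay below every BALB/c library, as did 15.5% of all genes. The list did not move as a whole, since 4 of the 8 genes had a positive log2 fold change and the median was -0.16. The summed level of the list was 80.1, 86.4 and 90.7 CPM in BALB/c and 61.1, 65.2 and 65.7 CPM in NOR, without overlap.

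Of 19 genes of calcium signaling, 1 rose and 1 fell, where 3.54% and 1.71% of all genes did. Plcb1, a phospholipase C, stood at 3.78, 5.08 and 4.05 CPM in BALB/c and at 13.3, 12 and 20.6 CPM in NOR. Prkca, protein kinase C alpha, stood at 10.6, 9.12 and 11.3 CPM in BALB/c and at 2.29, 2.95 and 1.76 CPM in NOR (log2 fold change -2.11 ± 0.17). Both calls held without any 1 library and with either covariate. Of 20 genes of ion and water transport, 3 were upregulated, against 3.54% of all genes. With either covariate for salivary genes, 1 was upregulated and 1 downregulated (4.69% of all genes were called with the salivary covariate). Slc4a4, a sodium bicarbonate cotransporter, stood at 14.6, 13 and 15.3 CPM in BALB/c and at 24.7, 28.6 and 34.1 CPM in NOR, a log2 fold change of 1.00 that fell to 0.94 without BALB/c 2 and to 0.89 without NOR 3. Atp1b1, a subunit of the sodium pump, stood at 20.2 CPM in NOR 1 and at 66.1 and 64.2 CPM in NOR 2 and NOR 3, and with the salivary covariate its log2 fold change was 0.47, which was not called. Car2 likewise was not called with that covariate, and both genes lost their calls when any 1 of 4 libraries was left out. Kcnn4, a calcium-activated potassium channel, was not called. It stood at 47.5, 55.0 and 49.7 CPM in BALB/c, at 5.43 CPM in NOR 1, and at 38.8 and 39.0 CPM in NOR 2 and NOR 3. None of 15 genes of exocytosis was called, although every NOR library lay below every BALB/c library in 6 of them (15.5% of all genes). In 2, every NOR library lay above (15.8% of all genes). A positive log2 fold change was found in 6 of the 15, and the median was -0.17. The summed level of the list was 893, 879 and 933 CPM in BALB/c and 840, 787 and 781 CPM in NOR. Nor was any of 8 acinar, 8 duct or 8 myoepithelial markers called.

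**Figure D4:**
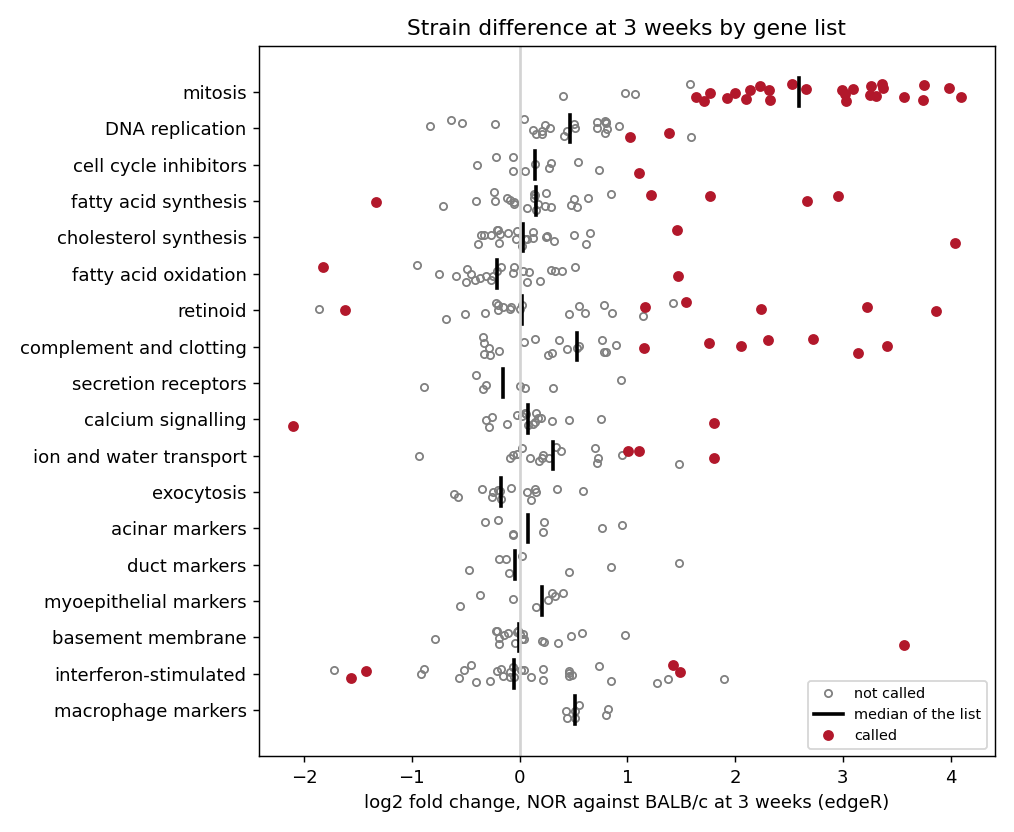
Log2 fold change of NOR against BALB/c at 3 weeks (edgeR) for each tested member of the gene lists, with DEGs filled and the median of each list as a bar. Mitosis genes have a median of 2.59, complement and coagulation genes one of 0.53 and fatty acid oxidation genes one of -0.21.

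Lymphocytes left little trace in either strain at this age. Of 9 T cell markers, 7 had at most 3 counts in every library, and the summed level was 0.38 to 0.48 CPM in BALB/c and 0.48 to 1.0 CPM in NOR. All 7 B cell markers had at most 3 counts in every library. No marker of T cells, B cells, plasma cells, macrophages, dendritic cells or natural killer cells was called. Of 7 dendritic cell markers 3, and of 5 natural killer cell markers 2, also had at most 3 counts in every library. The summed level of macrophage markers was 44, 52.7 and 28 CPM in BALB/c against 59.6, 61.1 and 60.5 CPM in NOR. Of 22 genes of lymphocyte activation listed, 11 had at most 3 counts in every library, which left little room for a call. None of the 21 tested was called. Of 28 genes of lymphocyte migration, Selplg and Cd44 were upregulated, against 3.54% of all genes. Both lost their calls when any 1 of at least 4 libraries was left out, and Cd44 stood at 1.57 CPM in NOR 1 against 12.2 and 11.1 CPM in NOR 2 and NOR 3.

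Of 33 interferon-stimulated genes, 2 were upregulated and 2 downregulated, where 3.54% and 1.71% of all genes were, with a median of -0.05. Isg20, an exonuclease, stood at 19.8, 20.1 and 19.6 CPM in BALB/c and at 56.8, 58.4 and 51.7 CPM in NOR. Ifih1, a sensor of double-stranded RNA, stood at 12.1, 17.2 and 11 CPM in BALB/c and at 5.07, 5.70 and 3.52 CPM in NOR. The calls of Ifi27l2a (higher) and Ifi44 (lower) were each lost when any 1 of 3 libraries was left out. For comparison, 29 of these 33 genes were upregulated in NOR LGs at 8 weeks, where 8.93% of all genes were, and 27 at 16 weeks, where 14.1% were. The strain difference itself rose from 3 to 8 weeks for 20 of them and fell for 1, Isg20, where 2.22% of all genes changed in either direction.

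The MHC is a further region where the strains are known to differ in sequence. Of 27 H2 genes tested, 4 were upregulated and 4 downregulated, where 3.54% and 1.71% of all genes were, and only 4 of these 8 calls held without any 1 library. The even balance did not hold. With either covariate for salivary genes, 1 was upregulated and 5 were downregulated (4.69% of all genes were called with the salivary covariate). Without NOR 3, 1 was upregulated and 4 were downregulated. H2-T23, which encodes the nonclassical class I molecule Qa-1, stood at 37.3, 39.3 and 33.4 CPM in BALB/c and at 4.57, 4.75 and 7.38 CPM in NOR. H2-Q10, a class I gene known for secretion by the liver, stood at 5.36, 5.33 and 3.99 CPM in BALB/c and at 0.143, 0.380 and 0.176 CPM in NOR. H2-T10 stood at 1.75, 1.45 and 1.65 CPM in BALB/c and at 6.71, 8.08 and 5.45 CPM in NOR. Class I genes are similar to each other, so counts of single members are uncertain.

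Neighboring genes did not always move together. In 13 places on the chromosomes, 3 or more successive tested genes were all DEGs, 41 genes in all, and in 4 of these places all genes moved one way. One was a cluster of organic anion transporters on chr6:141907281-142322950. Slco1a1 had no count in BALB/c and stood at 1.36, 0.856 and 1.23 CPM in NOR, at least 5.78-fold higher. Slco1a6 stood at 15.8, 14.8 and 16.6 CPM in BALB/c and at 104, 79.3 and 66.1 CPM in NOR, and Slco1a5 had a log2 fold change of 2.11. On chr8:94067954-94180327, the metallothionein genes Mt1 and Mt2, whose products bind zinc and copper, rose beside Bbs2, a gene of ciliary transport that fell by 1.80. Mt2 stood at 1.48, 1.37 and 0.443 CPM in BALB/c and at 10.6, 13.6 and 28.3 CPM in NOR, and Mt1 at 9.09, 9.52 and 7.85 CPM against 24.9, 31.0 and 45.7 CPM. On chromosome 11, Asgr1 lay beside the lectin genes Clec10a, which rose, and Mgl2, which fell and lost its call without BALB/c 1 (adjusted P = 0.0741). The share of tested genes called per chromosome ran from 3.29% on chromosome 16 to 7.98% on chromosome 3 among the autosomes.

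The strain differences of 3 weeks persisted in part. Of the 703 DEGs, 386 (54.9%) were called in the same direction at 8 weeks, where they made up 24.9% of 1549 DEGs, and 409 (58.2%) at 16 weeks, where they made up 15.8% of 2589. Another 214 (30.4%) were called at neither age in either direction. The change of the strain difference was tested as an interaction. It was called for 297 genes (2.22%) from 3 to 8 weeks and for 1427 (10.7%) from 3 to 16 weeks. Among the 703 DEGs, 192 were called in the latter. These genes were chosen for their difference at 3 weeks, and the same libraries enter the interaction, so a smaller difference later is favored by the choice. Both later ages used pooled mice, so age cannot be told apart from pooling.

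Scd1 was among the genes whose strain difference was called only at 3 weeks. Its log2 fold change was 2.96 at 3 weeks, -0.06 ± 0.21 at 8 weeks and -0.04 ± 0.21 at 16 weeks, and the change was significant at both ages (edgeR interaction, adjusted P = 9.45e-06 and 6.44e-06). Mfsd4, a membrane transporter of the major facilitator family, went from 3.25 to -0.10 and -0.44. Mki67 went from 1.63 to -0.30 ± 0.26 and 0.23 ± 0.26 (adjusted P of the change 0.00823 and 0.013). It was the only one of the 30 mitosis genes whose change was called from 3 to 8 weeks, and from 3 to 16 weeks Mki67 (lower) and Top2a (higher) were called. The mitosis list as a whole had 6 genes upregulated at 8 weeks (8.93% of all genes were), with a median of 1.07, and 28 at 16 weeks (14.1% of all genes), with a median of 1.94. Actn1 declined from 1.97 to 1.17 ± 0.09 and 0.17 ± 0.09. The difference of Dpyd, which breaks down pyrimidines, widened instead, from -1.68 to -4.62 and -4.67.

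The direction reversed for 19 of the 703 DEGs, 6 at 8 weeks, where 11.6% of all genes were DEGs, and 18 at 16 weeks, where 19.4% were. Mup5, of the major urinary proteins, stood at 49.8, 43.4 and 49.9 CPM in BALB/c and at 287, 222 and 348 CPM in NOR at 3 weeks, a log2 fold change of 2.58 ± 0.29. It was -1.38 ± 0.28 at both later ages. Gpr155 stood at 25.6, 28.0 and 25.5 CPM in BALB/c and at 13.1, 10.2 and 10.2 CPM in NOR at 3 weeks, a log2 fold change of -1.22 ± 0.15, and was 2.21 ± 0.15 at 8 weeks and 1.10 ± 0.15 at 16 weeks. Only 8 of the 19 genes, Mup5 and Gpr155 among them, kept their call at 3 weeks without any 1 library.

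**Figure D5:**
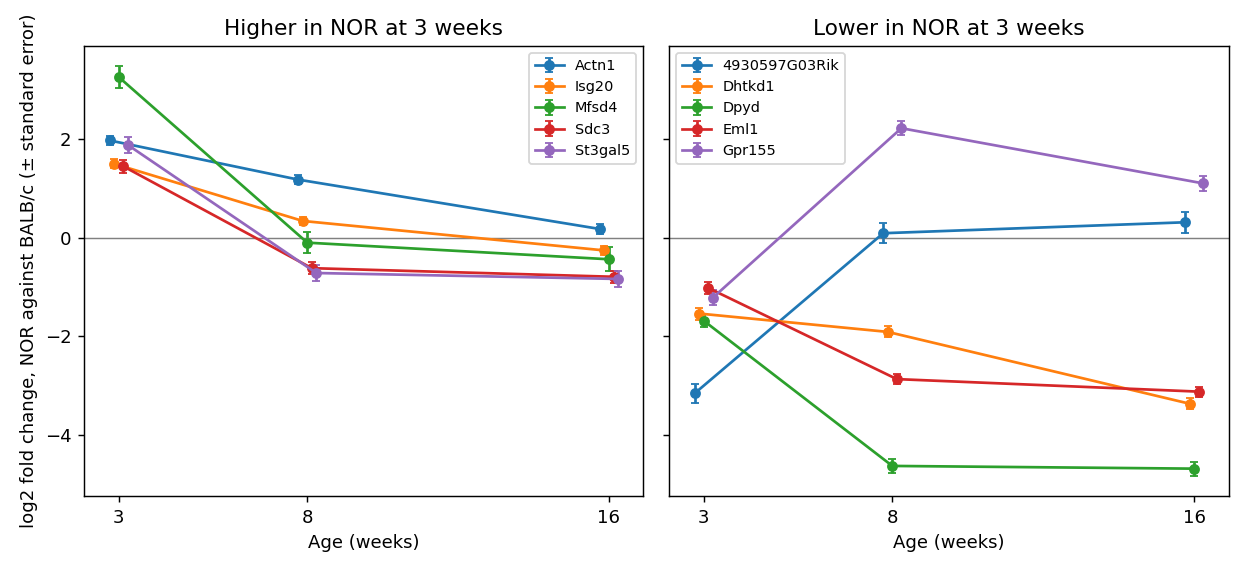
Log2 fold change of NOR against BALB/c (± standard error, edgeR) at 3, 8 and 16 weeks for the 5 upregulated and 5 downregulated genes whose interaction P-values from 3 to 16 weeks were smallest. Mfsd4 falls from 3.25 to near 0, Gpr155 crosses from -1.22 to 2.21 and 1.10, and Dpyd moves from -1.68 to -4.67.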

How the data were processed

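Exorbital LGs of male mice were profiled by stranded mRNA libraries sequenced as single reads of 50 bases. Per the labels and the study's methods, the authors aligned the reads to mm10 with HISAT2 and counted reads on exons per gene symbol with featureCounts 1.6.2, without multi-mapping reads or those on more than 1 gene. No strand option was set, so that antisense partners cannot be told apart. The authors deposited raw counts without normalization for 23337 genes. The mm10 genome derives from another strain, C57BL/6J, and the loss of reads with strain variants was not tested.

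Counts were normalized by TMM in edgeR 4.0.16 (limma 3.58.1, R 4.3.3), with factors of 0.815 to 0.935 at 3 weeks. The 20 most abundant genes took 65.9% to 70.8% of the counts. After filterByExpr (minimum count 10, minimum total 15), 13376 genes were fitted by the quasi-likelihood F-test with 1 mean per strain and age over all 18 libraries and no covariate. The biological coefficient of variation was 13.8%. Adjustment over all genes tested used the Benjamini-Hochberg method, and ± after a fold change is a standard error. The cutoffs for DEGs were 0.05 for the adjusted P and 1 for the log2 fold change in either direction. Where a strain had at most 3 counts in every library, a ratio of pooled counts with an exact binomial interval (95%, counting error only) or, with no count, a bound against 3 counts per library replaced the fold change. The spread behind the P-values is shared by the 3-week libraries of single mice and the pools of the later ages.

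Genes named were the 10 in each direction with the smallest P, genes with one strain at the floor, members of gene lists, DEGs in runs of 3 or more neighbors, DEGs that reversed later, and the 5 in each direction with the smallest interaction P. Members and lists were chosen with earlier results of these data known. A result for 1 listed gene is not reported here. Promoters were from RefSeq (GRCm38.p6). On simulated data, 79 of 95 genes changed by 1.5 on the log2 scale and 93 of 99 changed by 2 were called at 3 weeks, with 4 unchanged genes. Apart from these changes, all simulated libraries shared the same mean profile. The simulation thus held no unequal salivary, muscle or adipose levels, and it does not show how these affect the calls. Same-numbered libraries of the strains had deviations correlated at 0.309, 0.395 and -0.0991, so the numbers were not taken as pairs.

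Alternatives were DESeq2 1.42.0 (the authors' tool), its size factors, TMM without the 20 most abundant genes, the table without the low-count filter, genes with a mean of 1 CPM or more, a fit of the 3-week libraries alone, a replicate block, each library left out, no fold-change cutoff, glmTreat and a parotid marker covariate. The salivary covariate and the fits within salivary-low (BALB/c 1 and 3, NOR 1) and salivary-high (BALB/c 2, NOR 2 and 3) libraries were chosen after seeing the data. Figures were made with matplotlib 3.10.9 in Python 3.11.15.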

Additional observations from a re-analysis of the deposited data

Results flagged for a closer look

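For 28 of 46 genes examined (the leading genes, the genes that reversed and those with the smallest interaction P), the strain difference itself changed with age by the edgeR interaction test. Many of these genes were chosen for reversing or for a small interaction P, which favors such a count, and over all genes the interaction was called for 2.22% from 3 to 8 weeks and 10.7% from 3 to 16 weeks. For another 7 a group was at the floor of 3 counts, so no value is given. Values are changes of the log2 fold change of NOR against BALB/c, and age cannot be told apart from pooling. From 3 to 16 weeks, the difference rose for AI467606 (5.63), Slc16a12 (4.21), Sfmbt2 (3.47), 4930597G03Rik (3.46), Fam65b (2.64), BC006779 (2.55), 4930420K17Rik (2.31) and Gpr155 (2.31). It fell for Adora1 (-4.07), Mup5 (-3.96), Mfsd4 (-3.69), Odam (-3.23), Dpyd (-2.99), Ttr (-2.90), St3gal5 (-2.71), Kbtbd13 (-2.69), Lipg (-2.36), Rrh (-2.26), Sdc3 (-2.23), Eml1 (-2.10), Dhtkd1 (-1.82), Actn1 (-1.79), Isg20 (-1.75), Slc37a1 (-1.12) and Cd59a (-1.09). From 3 to 8 weeks, it rose for Ifi44 (3.00) and Snap91 (2.23) and fell for Retsat (-1.01). Some of these changes start from an uncertain difference at 3 weeks. Of the 19 genes that reversed, 13 kept their 3-week call with both covariates for salivary genes, and 8 kept it also without each library. Adora1, Ttr and Odam lost it with the parotid marker covariate, where their log2 fold changes at 3 weeks were 0.53, 0.83 and 0.89.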

How the results depend on the processing

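The count of 703 DEGs was 705 with DESeq2 (646 shared) and 607 with the parotid marker covariate (554 shared). A fit of the 6 single-mouse libraries alone gave 562 (544 shared). Leaving out each library gave 598 to 743 DEGs, 21 to 29 upregulated mitosis genes, 78 to 112 called genes on the lists and 10 to 14 runs. The 2 fits chosen after seeing the data that kept only salivary-low or only salivary-high libraries at 3 weeks gave 468 and 412 DEGs, 107 and 95 interaction calls from 3 to 8 weeks (297 with all libraries), 56 and 64 called genes on the lists (106 with all), 4 and 17 mitosis genes (26 with all) and 7 and 6 runs (13 with all). These fits hold fewer libraries. The salivary-high fit gave 787 interaction calls from 3 to 16 weeks (1427 with all). A test against the fold threshold (glmTreat) gave 246 DEGs, 21 and 347 interaction calls and 1 run. No fold-change cutoff gave 2002, 503 and 3325 calls and 73 runs. A mean CPM of at least 1 left fewer genes and gave 7 runs. Of 173 named DEGs, 121 kept their call without each library and 118 also with both covariates. Adora1 reversed in the salivary-low libraries (log2 fold change -0.18) and Prpmp5 with the salivary covariate (-0.17). The cause was not tested. The replicate block, although the numbers do not pair the samples, gave 699 DEGs, 683 of them among the 703. NOR 3 had the fewest counts (6378613), which limits genes near 0.527 CPM.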

Other observations

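Some gene lists held a single DEG, where 5.26% of all genes were called. Of 22 basement membrane genes, Col4a6, a collagen IV chain gene, was upregulated, at 0.109, 0.565 and 0.253 CPM in BALB/c and 2.50, 4.37 and 3.69 CPM in NOR (log2 fold change 3.57). Of 13 metalloproteinase and inhibitor genes, Mmp3, a stromelysin, was downregulated, at 3.83, 4.12 and 2.72 CPM in BALB/c and 1.36, 0.761 and 1.05 CPM in NOR. Of 6 endothelial markers, Vwf, the von Willebrand factor gene, was upregulated, at 6.79, 6.05 and 5.63 CPM in BALB/c and 12.8, 13.7 and 19 CPM in NOR. Only 2 of the 6 markers had a positive log2 fold change, and their median was -0.08. Their summed level overlapped, at 57.7, 62.5 and 51.5 CPM in BALB/c and 48.1, 60.1 and 65.6 CPM in NOR. The groups did not overlap in Col4a6, Mmp3 or Vwf, and these 3 calls held without any 1 library. Of 18 genes of gland development, Sox10, a transcription factor of lacrimal acinar precursors and of glia, was upregulated, with a log2 fold change below 1 without NOR 2 (0.96) or NOR 3 (0.92). It stood at 9.43 CPM in NOR 1, just below BALB/c 2 (9.44 CPM), and at 21.6 and 23.9 CPM in NOR 2 and NOR 3. Single calls among 14 clock genes (Arntl, lower) and 5 mast cell markers (Mcpt4, higher) were each lost when any 1 of at least 3 libraries was left out.

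Of 244 solute carrier genes, 14 (led by Slc37a1) were upregulated and 7 downregulated, where 3.54% and 1.71% of all genes were, with a median of 0.04. Of these 21 calls, 15 held without any 1 library. Slc25a13, a mitochondrial aspartate and glutamate carrier, had a log2 fold change of 1.75 ± 0.16, and Slc48a1, a heme transporter, one of -1.24 ± 0.09. The brush-border and blood-brain barrier efflux pump gene Abcb1a stood at 2.46, 3.23 and 2.47 CPM in BALB/c and at 17, 15.6 and 17.1 CPM in NOR (log2 fold change 2.62 ± 0.16). None of 6 fibroblast markers and none of 15 immediate early genes, which respond to handling and stress, was called.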
